A study of Mus musculus with 11 samples.

Results

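The genes described here are 5 receptors of the Klrb1 family (Klrb1, Klrb1a, Klrb1b, Klrb1c and Klrb1f) and 2 of their ligands (Clec2d and Clec2i), taken by gene name as 7 of the 54532 genes counted. All 7 passed the filter on low counts that left 13129 genes for testing. They were measured by bulk RNA sequencing of CD8+ Tregs, which were enriched from the spleens of wild-type mice on CD8 beads and then sorted by flow cytometry as CD8+CD44+Ly49+CD122+. The 11 libraries were 6 from young mice (3 of either sex) and 5 from middle-aged mice (2 male, 3 female), and the labels give ages of 2 to 3 months for the young and 10 to 12 months for the older mice. The labels call the older group old, whereas the study calls it middle-aged, and the latter term is used. By the labels the groups differed by age and sex, with no treatment or engineered allele in any of them. C57BL/6J is the wild-type strain named in the study's methods. Nothing in the labels says whether a library came from 1 mouse or from several pooled mice, although the study's legend calls the libraries biologically independent, and the p values below measure the spread between libraries. Whether lower RNA of a gene came from fewer cells that express it or from less RNA per cell cannot be told apart in bulk samples.

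Klrb1 genes encode the NKR-P1 proteins, type II membrane receptors with a C-type lectin-like domain that are carried by NK cells and by subsets of T cells. Their ligands are the Clr proteins, which have the same fold and are encoded by Clec2 genes that lie between the receptor genes in the NK gene complex, so that receptor and ligand are inherited together. Mouse NKR-P1A, NKR-P1C and NKR-P1F (Klrb1a, Klrb1c and Klrb1f) are activating receptors, and NKR-P1C is the NK1.1 antigen of C57BL/6 mice, which signals through the adaptor FcRγ. NKR-P1B and NKR-P1G (Klrb1b and Klrb1) are inhibitory. NKR-P1B recognizes Clr-b (Clec2d), a protein present on most haematopoietic cells whose loss exposes a cell to NK killing, and NKR-P1F and NKR-P1G recognize Clr-g (Clec2i).

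All 7 genes lie on chromosome 6 (GRCm38) within 577.3 kb, from 128609227 to 129186534. Klrb1a (ENSMUSG00000030361, 128609227 to 128623533), Klrb1 (ENSMUSG00000079299, 128705836 to 128723059), Klrb1c (ENSMUSG00000030325, 128778485 to 128789215) and Klrb1b (ENSMUSG00000079298, 128813706 to 128826331) followed each other on the minus strand. Clec2i (ENSMUSG00000030365, 128887588 to 128898167), Klrb1f (ENSMUSG00000030154, 129045901 to 129057464) and Clec2d (ENSMUSG00000030157, 129180615 to 129186534) lay on the plus strand. The exon lengths of the deposited table ranged from 1213 bases for Clec2d to 3110 bases for Clec2i, and they equalled those of GENCODE M21 for all 7 genes.

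**Figure D1:**
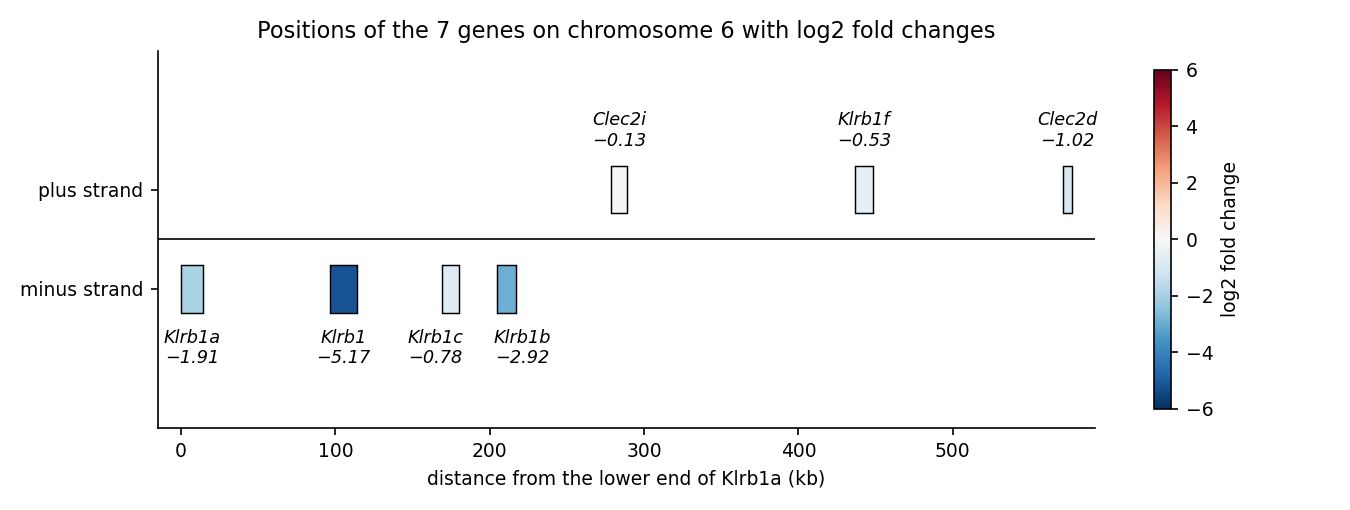
Positions of the 7 genes on chromosome 6, as distance in kb from the lower end of Klrb1a, by strand. The colour and the number at each box give the edgeR log2 fold change of middle-aged over young libraries, from −5.17 for Klrb1 to −0.13 for Clec2i.

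Klrb1a, Klrb1b and Klrb1c are close paralogs, which bears on how far reads could be assigned to one of them. The coding sequences of the first listed transcripts were 92% identical between Klrb1a and Klrb1c over 676 aligned bases, 86% between Klrb1b and Klrb1c, and 84.4% between Klrb1a and Klrb1b. Klrb1 was most like Klrb1f, at 82%, and at most 71.4% identical to the other 3. The longest stretches without a difference are shown in capitals with 20 bases on either side, since a read that lies within such a stretch has no letter that tells the genes apart. The first pair shares 108 bases, from base 67 of the Klrb1a and base 193 of the Klrb1c coding sequence, and the second pair shares 85 bases, from base 279 of Klrb1a and base 261 of Klrb1b.
Klrb1a, pair with Klrb1c: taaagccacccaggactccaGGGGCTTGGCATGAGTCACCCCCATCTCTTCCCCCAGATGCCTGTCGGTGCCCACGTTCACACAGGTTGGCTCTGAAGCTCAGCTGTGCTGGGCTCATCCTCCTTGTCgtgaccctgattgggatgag
Klrb1c, pair with Klrb1a: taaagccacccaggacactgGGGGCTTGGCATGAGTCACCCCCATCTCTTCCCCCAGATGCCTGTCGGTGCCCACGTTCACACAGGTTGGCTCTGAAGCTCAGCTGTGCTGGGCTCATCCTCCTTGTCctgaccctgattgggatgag
Klrb1a, pair with Klrb1b: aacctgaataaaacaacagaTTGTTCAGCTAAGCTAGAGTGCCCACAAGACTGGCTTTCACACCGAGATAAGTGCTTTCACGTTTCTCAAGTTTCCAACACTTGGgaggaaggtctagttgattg
Klrb1b, pair with Klrb1a: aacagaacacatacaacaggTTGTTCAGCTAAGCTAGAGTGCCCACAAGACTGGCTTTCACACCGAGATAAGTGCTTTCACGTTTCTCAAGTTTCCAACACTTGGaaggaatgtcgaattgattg
Of all 31-base windows in the annotated transcripts, 19.4% of those of Klrb1a, 12.1% of those of Klrb1c and 10.7% of those of Klrb1b also occurred in another of the 7 genes. The share was 5.75% for Clec2d, 2.13% for Clec2i, 0.437% for Klrb1 and 0.289% for Klrb1f. Counted over all annotated genes, the shares were 30.8% for Klrb1b, 21.2% for Klrb1c, 11.8% for Clec2d and 11.3% for Clec2i, and unchanged for the other 3. Clec2d and Clec2i shared windows with Clec2g among others. In addition, a read-through gene model on the same strand, Gm44511, covered 26.9% of the exon bases of Klrb1b and 13.9% of those of Klrb1c, and it had 0 counts in every library. How the counting program treated reads shared by paralogs or by overlapping models is not given in the sources used here, so values of Klrb1a, Klrb1b, Klrb1c, Clec2d and Clec2i are uncertain to that extent.

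The stretches before the transcription starts are shown for 4 receptors, those with a match to one of the strings below. Of these genes 3 were lower in middle-aged libraries before correction, and 2 of the stretches were nearly the same. Klrb1 was also lower before correction and is not shown. Each is the 250 bases before the RefSeq start (GRCm38.p6), written 5′ to 3′ on the strand of the gene. The stretches of Klrb1a and Klrb1c lie inside the gene coordinates given above. For these genes the RefSeq start used is thus not the outermost start of the annotation used for the counts. Klrb1b and Clec2i had 2 RefSeq windows each, of which the first listed was used. Capitals mark matches to TGTGGT, a core letter string bound by Runx factors, or to GGAAGT, one bound by Ets factors, on either strand (ACTTCC is the same string read on the other strand).
Klrb1a, chr6:128622935-128623184, minus strand: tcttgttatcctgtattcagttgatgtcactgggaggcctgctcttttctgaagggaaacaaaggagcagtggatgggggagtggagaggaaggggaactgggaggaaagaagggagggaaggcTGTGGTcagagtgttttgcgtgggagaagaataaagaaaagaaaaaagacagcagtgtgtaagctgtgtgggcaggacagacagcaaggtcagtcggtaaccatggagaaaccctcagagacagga
Klrb1c, chr6:128788642-128788891, minus strand: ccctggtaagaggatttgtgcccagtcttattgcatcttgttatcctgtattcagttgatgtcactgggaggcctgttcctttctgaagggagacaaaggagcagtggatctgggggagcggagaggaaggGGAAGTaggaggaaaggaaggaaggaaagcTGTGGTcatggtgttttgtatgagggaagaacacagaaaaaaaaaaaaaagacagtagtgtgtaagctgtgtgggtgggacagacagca
Klrb1b, chr6:128826316-128826565, minus strand: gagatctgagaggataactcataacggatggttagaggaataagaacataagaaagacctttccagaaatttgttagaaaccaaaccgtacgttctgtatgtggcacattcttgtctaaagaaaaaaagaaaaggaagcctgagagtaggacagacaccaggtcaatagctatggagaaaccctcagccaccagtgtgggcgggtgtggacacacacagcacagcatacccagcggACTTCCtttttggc
Klrb1f, chr6:129045651-129045900, plus strand: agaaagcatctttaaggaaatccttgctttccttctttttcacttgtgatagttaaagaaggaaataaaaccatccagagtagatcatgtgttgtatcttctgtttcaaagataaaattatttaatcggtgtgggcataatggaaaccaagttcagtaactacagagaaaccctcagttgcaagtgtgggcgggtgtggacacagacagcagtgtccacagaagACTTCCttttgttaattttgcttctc
Over the 300-base windows that also hold 50 bases after the start, Klrb1a and Klrb1c were 90.8% identical across 260 aligned bases, and the other 20 pairs among the 7 genes were 48.1% to 66.8% identical. TGTGGT occurred in 2 of the 7 windows, at −126 in Klrb1a and −89 in Klrb1c relative to the start, compared with 16.8% of 32851 mouse promoter windows of that length. GGAAGT occurred in 4 of the 7, at −119 in Klrb1c, −14 in Klrb1b, −26 in Klrb1f and +40 in Klrb1a, compared with 23.8% of all windows. TCACAC, a T-box string, was in 0 of the 7 and in 14.5% of all windows. The windows of Klrb1, Clec2d and Clec2i held no match to any of these strings. These matches describe the letters and are no evidence of binding.

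Total counts ranged from 6135736 to 24394532 per library, and the 2 libraries under 10000000 were young male 1 and young female 1 (8421396). CPM, counts scaled to a common library size, were computed with TMM factors. A count of 0 allows up to 3 counts, which is 0.119 to 0.543 CPM by library and covers counting error only. All 9 T cell genes examined were expressed in every library, with Cd8a at 845 ± 105 CPM in the 6 young libraries and at 810 ± 144 CPM (both SD) in the 5 middle-aged ones. Of the genes used for the sort, Il2rb (CD122) stood at 552 CPM in young male 1 and 1293 CPM in young female 1, the 2 shallow libraries, against 1956 to 2625 CPM in the other 9. Cd44 stood at 42.3 CPM in young male 1 and at 98.4 to 165.5 CPM in the other 10. Among genes of innate-like and γδ T cells, Zbtb16 was too low to be tested, at a mean of up to 0.356 CPM in either age group. Trdc, Tcrg-C1 and Tcrg-C4 were detected in every library, at means of 19.8, 16.3 and 20.6 CPM in the young and 15, 23.6 and 23.4 CPM in the middle-aged group. Log2 fold changes below are middle-aged over young from edgeR's quasi-likelihood test in a model with sex and age, with Benjamini-Hochberg adjustment of p over all 13129 genes. A gene was called at an adjusted p under 0.05. Single genes were also compared by an exact two-sided permutation test of mean log2 CPM over every way of assigning 6 of the 11 libraries to the young group, for which the smallest possible p is 0.00216. The permutation p values were not adjusted for the number of genes compared.

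Per kb of exon, which allows levels to be set between genes, Klrb1c and Clec2i were the most abundant of the 7 at both ages. In young libraries Klrb1c had 30.1 ± 11.4 CPM per kb and Clec2i 25.2 ± 2.59 CPM per kb (SD, n = 6). Clec2d followed at 9.99 ± 8.84, Klrb1a at 6.26 ± 3.56, Klrb1f at 5.94 ± 3.33, Klrb1b at 2.01 ± 1.12 and Klrb1 at 0.764 ± 0.587 CPM per kb. Neighbours in this order were not always separated: Klrb1c exceeded Clec2i in 5 of 6 young libraries, Clec2d exceeded Klrb1a in 4, Klrb1a exceeded Klrb1f in 3, and Klrb1b exceeded Klrb1 in 5. Clec2i was above Clec2d, and Klrb1f above Klrb1b, in all 6.

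In middle-aged libraries the order by mean was Clec2i (23.0 ± 2.92 CPM per kb, SD, n = 5), Klrb1c (19.9 ± 10.5), Clec2d (4.96 ± 1.34), Klrb1f (4.71 ± 4.1), Klrb1a (2 ± 2.4), Klrb1b (0.528 ± 0.839) and Klrb1 (0.0203 ± 0.0453). Clec2i exceeded Klrb1c in 3 of 5 libraries, and Klrb1b exceeded Klrb1 in 3 of 5. Klrb1c was above Clec2d in all 5, with no overlap of the ranges. Klrb1f was above Klrb1a, and Klrb1a above Klrb1b, in all 5 middle-aged libraries, whereas Klrb1a and Klrb1f had each been the higher in 3 of 6 young ones.

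Klrb1, Klrb1a and Klrb1b had the lowest levels in middle-aged relative to young CD8+ Tregs, but no member passed the threshold after correction. In edgeR, 0 of the 7 genes were called, compared with 0.0229% of all genes tested. Before correction, 4 of the 7 (Klrb1, Klrb1a, Klrb1b and Klrb1c) had p values under 0.05 and all 4 were lower, compared with 0.990% of all genes that were lower at this level. Klrb1 passed the filter on low counts through its young libraries alone, so its place in this count is fixed by the filter. The other 3 stand among 6 genes. Of these, Klrb1b passed mainly through its young libraries, with 0, 2 and 0 counts in middle-aged males 1 and 2 and middle-aged female 1. Its p value is therefore conditioned in part on a high young group. In the 9 libraries with over 10000000 counts, without young male 1 and young female 1, 0 of the 7 were called and the log2 fold changes were −5.63 for Klrb1, −2.12 for Klrb1a, −3.17 for Klrb1b, −1.06 for Klrb1c, −0.79 for Klrb1f, −1.24 for Clec2d and −0.20 for Clec2i. All 7 fold changes were negative, from −5.17 to −0.13 on the log2 scale, against a median of 0.00 over all genes. In 0 of the 7 were the age groups separated without overlap, and 0.297% of all genes were lower without overlap.

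**Figure D2:**
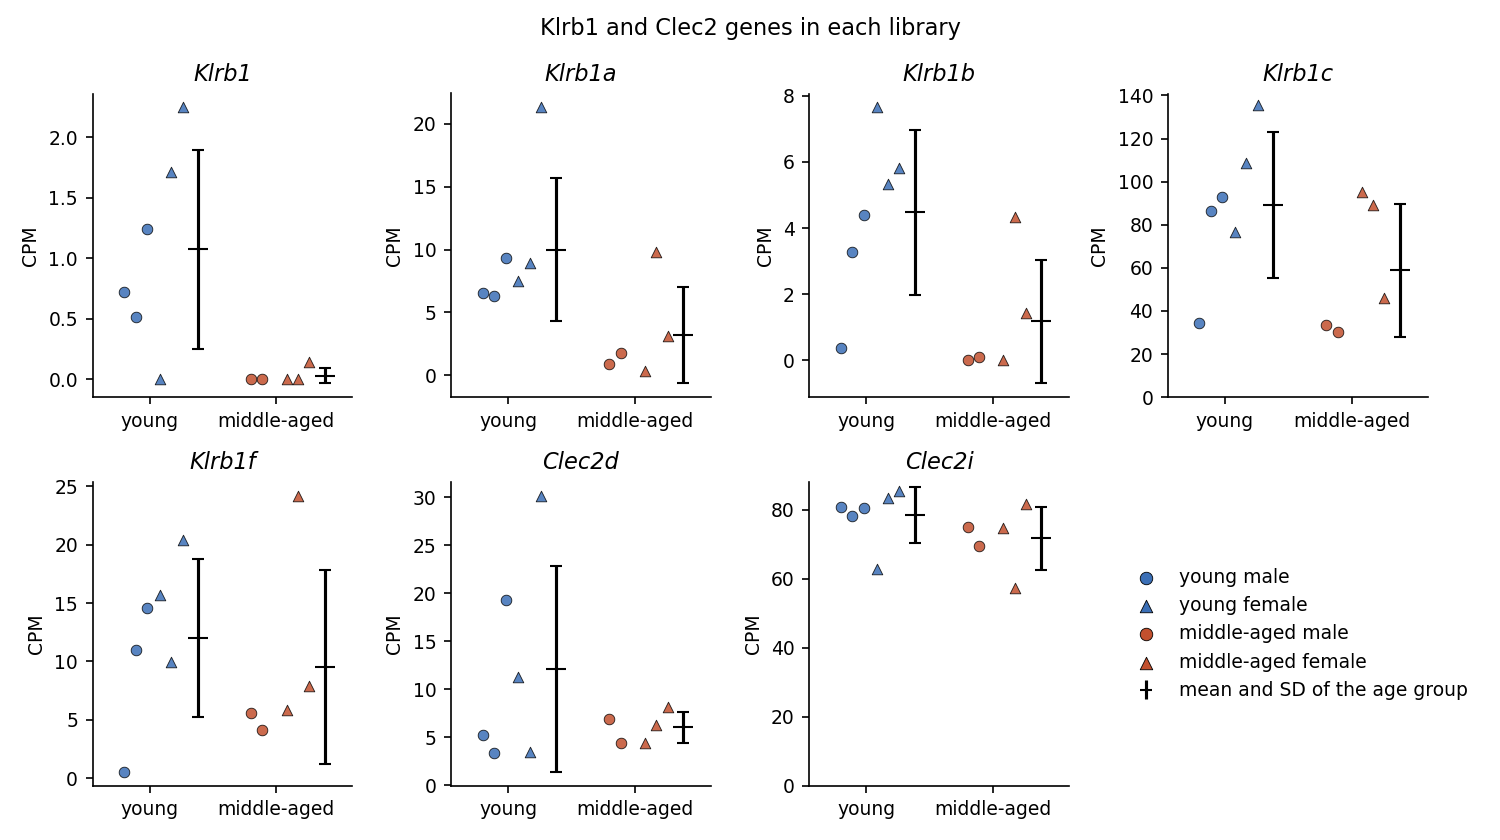
CPM of each of the 7 genes in the 11 libraries, by age (x axis), with circles for males, triangles for females and bars for the mean and SD of the age group (6 young, 5 middle-aged). In Klrb1a and Klrb1b, 4 middle-aged libraries sit at or below 3.13 and 1.42 CPM and middle-aged female 2 sits among the young libraries, at 9.78 and 4.35 CPM.

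Klrb1, the gene of the inhibitory receptor NKR-P1G, was close to absent from middle-aged libraries. Its counts were 4, 11 and 26 in young males 1 to 3 and 0, 43 and 39 in young females 1 to 3. They were 0 in both middle-aged males, 0 in middle-aged females 1 and 2, and 3 in middle-aged female 3. In CPM these are 0.723, 0.516 and 1.24 in young males, 0, 1.71 and 2.25 in young females, and 0.142 in middle-aged female 3. Thus 5 of 6 young libraries were above all middle-aged libraries, and the exception, young female 1, had one of the lowest totals, where a count of 0 allows up to 0.417 CPM.

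Over all libraries of an age, Klrb1 had 123 counts in young and 3 counts in middle-aged mice. Scaled by library size the middle-aged to young ratio was 0.0233, with an exact interval of 0.00475 to 0.0698 that covers counting error only. The edgeR log2 fold change was −5.17 (SE 1.29, adjusted p = 0.401, unadjusted p = 0.00181), a value that depends on the prior count because the middle-aged libraries are at or under 3 counts. The exact permutation test gave p = 0.0173 (difference −2.68 in mean log2 CPM, 6 young and 5 middle-aged). Since the gene was kept for its young counts, these p values and those of the other tools are conditioned on a high young group and do not independently support a difference. With every gene kept that had at least 1 count in any library, the adjusted p was 0.326 in edgeR. Klrb1 passed the threshold with DESeq2 (adjusted p = 0.0461, log2 fold change −5.45), which called 0.860% of genes, and with limma voom with quality weights (adjusted p = 0.00907, log2 fold change −4.85), which called 1.05%.

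Klrb1a, the gene of the activating receptor NKR-P1A, was at 6.51, 6.29 and 9.36 CPM in young males and 7.51, 8.91 and 21.3 CPM in young females. The middle-aged males had 0.903 and 1.77 CPM, and middle-aged females 1 to 3 had 0.371, 9.78 and 3.13 CPM. Thus 4 of 5 middle-aged libraries were below every young library, and middle-aged female 2 was above 5 of the 6 young ones. Young libraries averaged 9.98 ± 5.69 CPM (SD, n = 6) and middle-aged ones 3.19 ± 3.83 CPM (SD, n = 5). The edgeR log2 fold change was −1.91 (SE 0.71, unadjusted p = 0.0193, adjusted p = 1), with a 95% interval of −3.46 to −0.37. The exact permutation test gave p = 0.0152. Without middle-aged female 2 the edgeR log2 fold change was −2.65, at an adjusted p of 0.50. The exact permutation p was then 0.00476, the smallest that 6 against 4 libraries allow. Since only this library overlapped the young ones, that p was fixed by leaving it out and adds no support.

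Klrb1b, the gene of the inhibitory receptor NKR-P1B, was at 0.362, 3.29 and 4.39 CPM in young males and 7.65, 5.33 and 5.82 CPM in young females. The middle-aged males had 0 and 0.118 CPM (0 and 2 counts), and middle-aged females 1 to 3 had 0, 4.35 and 1.42 CPM (0, 104 and 30 counts). The 3 lowest middle-aged libraries were below every young library, 4 of 6 young libraries were above every middle-aged one, and middle-aged female 2 and young male 1 accounted for the overlap. Young male 1, the shallowest library, had 2 counts, and there a count of 0 allows up to 0.543 CPM. Its place above the 3 lowest middle-aged libraries is therefore within counting error. For age, Klrb1b had an edgeR log2 fold change of −2.92 (SE 1.30, unadjusted p = 0.0446, adjusted p = 1), with a 95% interval of −5.75 to −0.08. The exact permutation test gave p = 0.0390, which rose to between 0.0556 and 0.0905 when any one of 8 of the 11 libraries was left out. Since the gene passed the filter mainly through its young libraries, these p values are conditioned in part on a high young group. Without middle-aged female 2 the log2 fold change was −3.99 in edgeR.

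Middle-aged female 2 was thus the library in which Klrb1a and Klrb1b stood at young levels, at 98.0% and 97.2% of the young mean, whereas the other 4 middle-aged libraries reached at most 31.4% and 31.8%. Klrb1 had 0 counts in this library. It was also the middle-aged library with the highest Klrb1f, at 201% of the young mean, and the lowest Clec2i, at 73.1%. Its summed level of 10 NK cell genes other than Klr genes was 1083 CPM, against 392 to 498 CPM in the other middle-aged libraries and 604 to 1339 CPM in young libraries. The largest parts of this sum were Gzma (334.5 CPM), Prf1 (318.6), Tyrobp (188.3) and Fcer1g (135.8). Ncr1 was at 48.9 CPM, against 1.81 to 22.6 CPM in the other middle-aged libraries and a young mean of 70.4 CPM. The summed level of 7 myeloid genes in middle-aged female 2 was 1452 CPM, against 210 to 665 CPM in the other middle-aged libraries and 185 to 459 CPM in young ones. The part of other cells in the Klrb1 values was not tested.

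Klrb1c, the gene of the activating receptor NK1.1, was the most abundant receptor of the family. It was at 34.2, 86.5 and 93.1 CPM in young males and 76.5, 108.6 and 135.5 CPM in young females. The middle-aged males had 33.6 and 30.2 CPM, and middle-aged females 1 to 3 had 95.1, 89.0 and 46.1 CPM. Both middle-aged males were below every young library, while the 3 middle-aged females were in the young range. Young libraries averaged 89.0 ± 33.9 CPM (SD, n = 6) and middle-aged ones 58.8 ± 31 CPM (SD, n = 5). The edgeR log2 fold change was −0.78 (SE 0.33, unadjusted p = 0.0347, adjusted p = 1), and the exact permutation test gave p = 0.167. With limma voom with quality weights the log2 fold change was −1.24 at an adjusted p of 0.0143.

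Klrb1f, the gene of the activating receptor NKR-P1F, showed no age difference larger than its spread. It was at 0.543, 10.9 and 14.6 CPM in young males, 15.7, 9.95 and 20.4 CPM in young females, 5.61 and 4.13 CPM in middle-aged males and 5.83, 24.2 and 7.87 CPM in middle-aged females. The lowest and the highest of the 11 values were young male 1, with 3 counts, and middle-aged female 2, with 579 counts. For age, edgeR gave Klrb1f a log2 fold change of −0.53 (SE 0.65, unadjusted p = 0.432, adjusted p = 1), with a 95% interval of −1.95 to 0.89, and the exact permutation test gave p = 0.931. Without middle-aged female 2 the log2 fold change was −1.0 in edgeR, which still did not pass (adjusted p = 1).

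Clec2d, the gene of the NKR-P1B ligand Clr-b, was detected in every library. It was at 5.25, 3.33 and 19.2 CPM in young males and 11.3, 3.46 and 30.1 CPM in young females. The middle-aged males had 6.89 and 4.43 CPM, and middle-aged females 1 to 3 had 4.34, 6.31 and 8.11 CPM. The young group was spread widely, with a coefficient of variation of 88.5%, against 27.0% in the middle-aged group, and its 2 highest libraries were those with replicate number 3. For Clec2d, edgeR gave a log2 fold change of −1.02 (SE 0.60, unadjusted p = 0.118, adjusted p = 1), and the exact permutation test gave p = 0.390. Without young female 3 it was −0.47 and without young male 3 −0.61 in edgeR.

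Clec2i, the gene of Clr-g, varied least of the 7, with a coefficient of variation of 11.7% over the 11 libraries compared with 46.1% to 133.6% for the other 6. It was at 80.8, 78.0 and 80.6 CPM in young males, 62.8, 83.4 and 85.3 CPM in young females, 75.1 and 69.4 CPM in middle-aged males and 74.8, 57.4 and 81.7 CPM in middle-aged females. The edgeR log2 fold change was −0.13 (SE 0.18, unadjusted p = 0.50, adjusted p = 1), and its 95% interval of −0.53 to 0.27 corresponds to between 0.694 and 1.21 times the young level. The exact permutation test gave p = 0.249, and p = 0.0317 when young female 1, the lowest young library, was left out (difference −0.20).

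**Figure D3:**
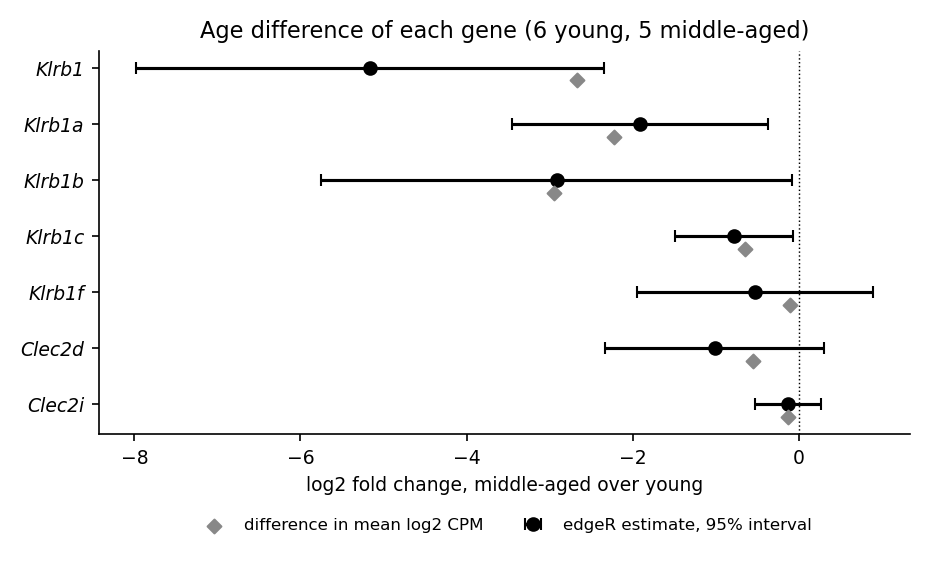
Log2 fold change of middle-aged over young libraries for the 7 genes. Black points with bars are the edgeR estimates with 95% intervals, and grey diamonds are differences in mean log2 CPM (6 young, 5 middle-aged libraries); the intervals of Klrb1, Klrb1a, Klrb1b and Klrb1c lie below 0 before any correction, and those of Klrb1f, Clec2d and Clec2i include 0.

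Males and females were then compared. With the sexes fitted apart, all 6 genes that could be fitted in both had negative log2 fold changes in either sex: Klrb1a −2.46 in males and −1.50 in females, Klrb1b −5.43 and −1.68, Klrb1c −1.16 and −0.48, Klrb1f −0.85 and −0.27, Clec2d −0.72 and −1.25, and Clec2i −0.14 and −0.11. Klrb1 could be fitted in males alone, at −6.84. The difference between the sexes was tested by the age-by-sex interaction, in which 0 of the 7 were called, compared with 0.00% of all genes (158 genes had an unadjusted p under 0.05 and 0 of the 7 did). The largest interaction terms, male minus female, were −3.75 (SE 2.34) for Klrb1b and −2.29 (SE 2.31) for Klrb1.

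For sex itself, 0 of the 7 were called in edgeR, compared with 0.0381% of all genes. Klrb1c had the smallest p value, with 55.5 ± 31.4 CPM in males (SD, n = 5) and 91.8 ± 30.1 CPM in females (SD, n = 6), a male over female log2 fold change of −0.88 (SE 0.33, unadjusted p = 0.0196, adjusted p = 1). All 5 receptors had negative point estimates for males over females, from −2.42 (SE 1.29) for Klrb1b to −0.88 for Klrb1c, Clec2d was at −0.44 (SE 0.59), and Clec2i was at 0.04 (SE 0.18).

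The 5 receptors were next expressed as shares of their summed CPM per kb in each library. The sum was 45 ± 18.4 CPM per kb in young libraries (SD, n = 6, range 16.6 to 73.4) and 27.1 ± 15.5 in middle-aged libraries (SD, n = 5, range 13.4 to 50.1). Klrb1c made up 67.5 ± 4.68% of it in young and 75.0 ± 11.4% in middle-aged libraries. Klrb1a made up 14.5 ± 5.76% (range 9.76% to 24.6%) in young and 6.78 ± 4.54% (range 0.660% to 12.2%) in middle-aged libraries. Klrb1f made up 12.0 ± 5.87% and 16.7 ± 5.74%, Klrb1b 4.21 ± 2.35% and 1.44 ± 1.83%, and Klrb1 1.74 ± 1.12% and 0.0915 ± 0.205%. The ranges of all 5 shares overlapped between the ages, and the shares were not tested.

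**Figure D4:**
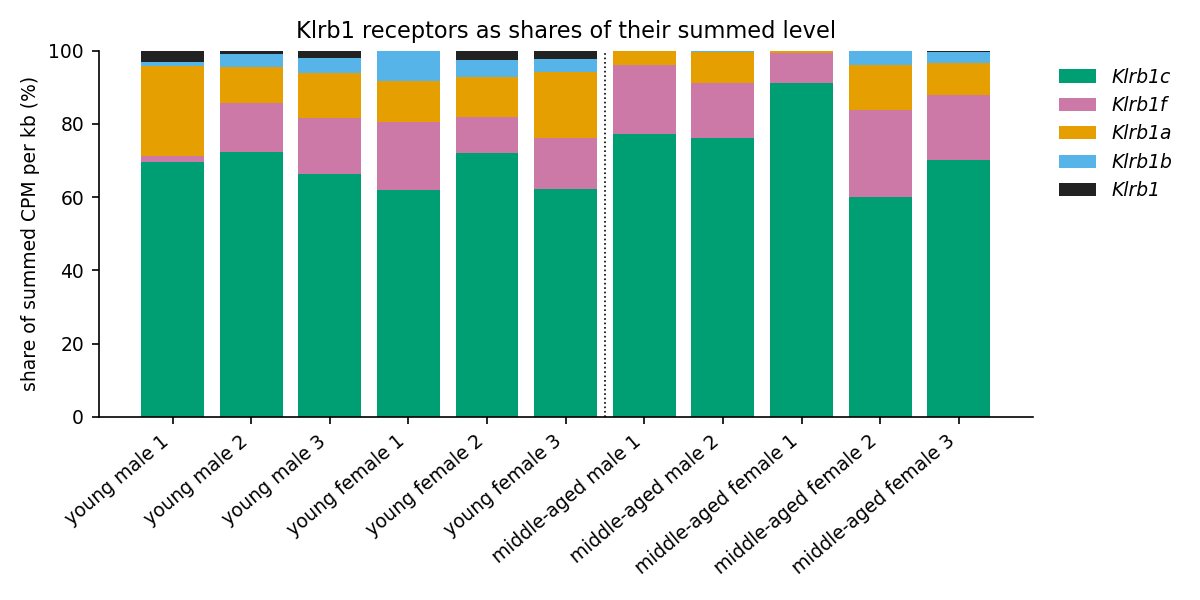
Share of each Klrb1 receptor in the summed CPM per kb of the 5 receptors, one bar per library, with young libraries left of the dotted line. Klrb1c is the largest share in all 11 libraries, from 60% in middle-aged female 2 to 91.2% in middle-aged female 1, and Klrb1 is visible in 5 of 6 young libraries and, at 0.458%, in middle-aged female 3.

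Expression of the other members of both families was not detectable or nearly so. Of the 7 other Klrb1 and Clec2 genes in the table, 0 passed the filter. Clec2j, Clec2h, Clec2e and the pseudogene Klrb1-ps1 had 0 counts in every library, Clec2g had 1 count and Clec2f 10 counts in all. Clec2l had 57 counts, at up to 2.34 CPM in a middle-aged library and 0 in every young library.

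The chromosome 6 interval from Klrb1a to Clec2d held 29 genes that are not among the 7, of which 19 had no count and 4 could be tested. Of these 4, 0 were called. BC035044 had a log2 fold change of −0.68 (SE 0.44), Gm44066 of 0.60 (SE 0.78) and BC064078 of 0.38 (SE 0.45). Gm15987, annotated on the antisense strand at Clec2g, was higher in middle-aged libraries before correction, averaging 6.19 ± 3.33 CPM there (SD, n = 5) against 0.770 ± 0.910 CPM in the young (SD, n = 6), with no overlap of the ranges (0 to 2.24 and 3.44 to 10.2 CPM). Its log2 fold change was 3.32 (SE 0.98, adjusted p = 0.668 in edgeR), and the exact permutation test gave p = 0.00649. Gm15987 was kept mainly for its middle-aged counts, so these p values and the lack of overlap do not independently support a difference. The share of all genes higher without overlap is not given here. Clec2g itself had 1 count in all libraries together.

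Adaptors, kinases and phosphatases that serve these receptors were examined as a list of 16 genes. All 16 were tested, 0 were called in edgeR and 0 had an unadjusted p under 0.05. The log2 fold changes were positive in 8 and negative in 8, with a median of 0.01 against 0.00 over all genes. Among the adaptors, Fcer1g (FcRγ) averaged 104.9 CPM in young libraries and 86.9 CPM in middle-aged ones (log2 fold change −0.37, SE 0.29), Tyrobp (DAP12) at 114.3 and 68.5 CPM (−0.88, SE 0.45) and Cd247 (CD3ζ) at 287 and 299 CPM (0.06, SE 0.22). Ptpn6, the phosphatase SHP-1 that inhibitory receptors recruit, was at 859 and 810 CPM (−0.07, SE 0.23). The differences in the kinases Lck (−0.02, SE 0.24) and Zap70 (−0.04, SE 0.17) were smaller than their standard errors, Fyn was at 535 and 702 CPM (0.38, SE 0.28), and Syk was at 18.5 CPM at both ages with a wide spread (SE 1.26).

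Of the 10 NK cell genes, 8 had lower point estimates in middle-aged libraries, with a median log2 fold change of −0.80, 0 were called (0.0229% over all genes), and 3 had unadjusted p values under 0.05, all lower (0.990% over all genes). Those were the receptor gene Ncr1 (−2.33, SE 0.69), the granzyme gene Gzma (−2.20, SE 0.62) and the protease gene Cma1 (−2.42, SE 0.53). Prf1, the perforin gene, was at 258 and 281 CPM (0.14, SE 0.27), a gene that cytotoxic CD8+ T cells use as well, and Fcer1g and Tyrobp belong to this list as well as to the pathway list. All 10 genes were detected at both ages, so no defining marker was at 0 in a whole age group.

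**Figure D5:**
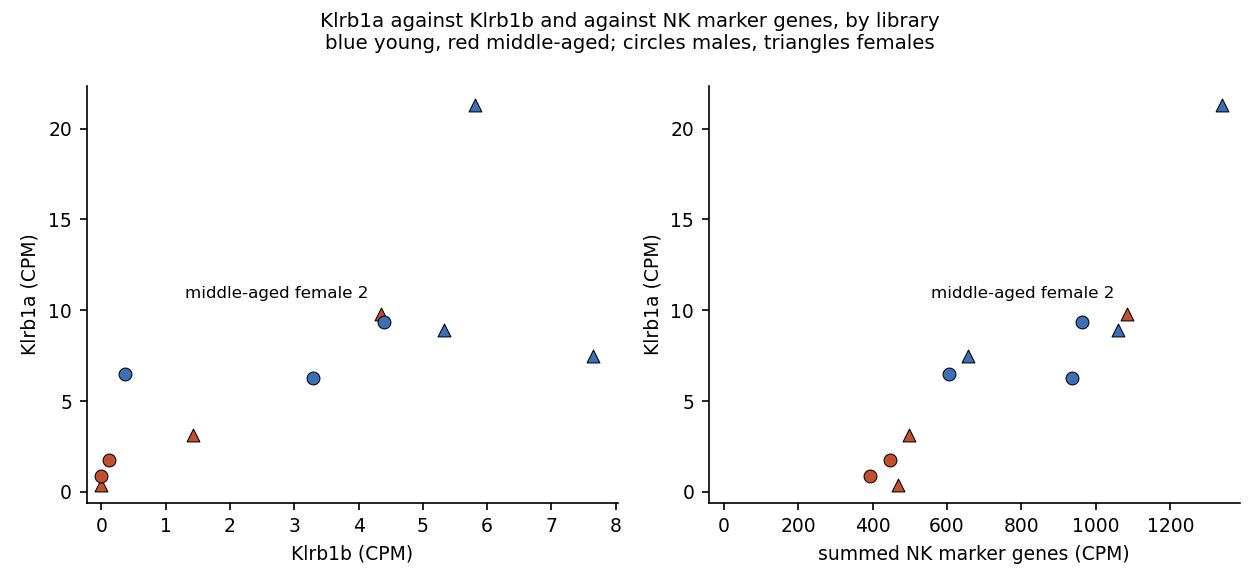
CPM of Klrb1a in each library against CPM of Klrb1b (left) and against the summed CPM of 10 NK cell genes (right), with young libraries in blue, middle-aged in red, males as circles and females as triangles. The 4 middle-aged libraries with NK sums of 392 to 498 CPM have Klrb1a at 0.371 to 3.13 CPM, and middle-aged female 2, at 1083 CPM, lies among the young libraries.

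Sums over the other marker lists were as follows. B cell genes (6) summed to 108.5 to 322 CPM in the young and 131.3 to 363.6 CPM in the middle-aged group, and genes of CD4 T cells (4) to 1.39 to 30.9 and 10.4 to 28.6 CPM. Erythroid and platelet genes (5) summed to 0.761 to 24.3 CPM in the middle-aged group and 21.5 to 114.2 CPM in the young, with Hba-a1 and Hbb-bs lower at unadjusted p values under 0.05. Of the 7 myeloid genes, Lyz2 was higher at an unadjusted p of 0.0111 in edgeR, at 59.8 CPM in the young and 324 CPM in the middle-aged group (log2 fold change 2.38, SE 0.79), and 1058 CPM in its highest library. In 0 of these lists was a gene called. Their part in the values of the 7 genes was not tested.

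Levels of the 7 genes were related to each other and to other genes as a description over the 11 libraries, which differ in age, sex and depth. On the log2 CPM scale, Klrb1a and Klrb1b were the most alike of the 21 pairs (Pearson r = 0.894, and 0.807 after age and sex were removed). Klrb1 and Clec2i followed (0.747 and 0.773), then Klrb1c and Klrb1f (0.711 and 0.680). Klrb1 had 0 counts in 5 of the 11 libraries and Klrb1b in 2, and Klrb1f had 3 counts in young male 1. Klrb1b stood at only 2 counts in young male 1, and again in middle-aged male 2. Correlations with Klrb1, Klrb1b or Klrb1f, here and below, therefore rest in part on values near the floor. The pair of Klrb1a and Klrb1b is among them. The uncertainty over reads shared by paralogs applies to that pair as well. Klrb1a and Klrb1c, with the nearly identical upstream sequences printed above, had r = 0.478, and 0.05 after age and sex were removed. Klrb1b and its ligand gene Clec2d had r = 0.409, and Klrb1f and its ligand gene Clec2i had r = −0.283.

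Among 9485 tested genes with a mean of at least 5 CPM over the 11 libraries, the gene most like Klrb1c was Fcer1g (r = 0.880), followed by Cdc25b (0.803) and Car2 (0.778). For Klrb1b it was Ncr1 (0.919), followed by Gm6637 (0.906) and Cd244a (0.905). Those for Klrb1a were Gm6637 (0.959), Epb41l2 (0.949) and Sox4 (0.935), and for Klrb1f they were Gsn (0.966), Pola2 (0.951) and Crat (0.940). Klrb1 was most like Tacc2 (0.898), Gpat3 (0.890) and Cma1 (0.884). Among the ligands, Clec2d was most like Plekha5 (0.858), Nek9 (0.840) and Zfp579 (0.825), and Clec2i most like Fam199x (0.912), Capn10 (0.878) and Herc2 (0.868).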

How the data were processed

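Splenic CD8+ Tregs were sorted, RNA was extracted with a column kit and low-input libraries were sequenced by a company, per the labels and the study's methods. The authors deposited whole-number counts per Ensembl gene for 11 libraries, without normalization. Kallisto and mm10 are named in the submitters' processing notes, without version or role. The aligner, strandedness and handling of reads shared by genes are not given in the sources used here. Genes were kept by filterByExpr on age (minimum count 10, minimum total 15) and tested with edgeR 4.0.16 (R 4.3.3; TMM factors, robust quasi-likelihood fit, sex and age), with Benjamini-Hochberg adjustment over 13129 genes. The scripts were tested on simulated data. Log2 CPM used a prior count of 2. Alternatives were DESeq2 1.42.0, limma 3.58.1 voom, other scalings and filters, single sexes and left-out libraries. Promoter windows were from RefSeq (7 of 7 matched) and transcripts from GENCODE M21, aligned with Biopython 1.88; coding sequences were taken from the first numbered transcript of each receptor. Genes named were the 7, other Klrb1 and Clec2 genes, tested interval genes, pathway and marker lists, and the 3 genes most like each. The genes and lists were chosen with earlier results of these data known. Library totals of 6135736 to 24394532 set the precision, and protein sequences were not analysed here. The summed level of the innate-like T cell markers is not reported here.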

Additional observations from a re-analysis of the deposited data

Results flagged for a closer look

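In 14 groups examined (7 genes, 2 ages), 4 held a library whose gap to its nearest neighbour exceeded Dixon's 95% critical value, where chance flags about 1 in 20. Klrb1 stood at 0.142 CPM in middle-aged female 3, from 3 counts, with the other 4 middle-aged libraries at 0. Any value above 0 would have been marked there, and 3 counts is what a count of 0 allows, so this case carries no weight and leaves 3 groups of 13. Klrb1a stood at 21.3 CPM in young female 3, against at most 9.36 CPM in the other young libraries. Klrb1f stood at 24.2 CPM in middle-aged female 2, against at most 7.87 CPM in the other middle-aged libraries. Clec2i stood at 62.8 CPM in young female 1, the second shallowest library, against at least 78.0 CPM in the other young libraries.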

How the results depend on the processing

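No alternative reversed an edgeR, DESeq2 or limma estimate of the 7 genes, over 17 alternatives for Klrb1 and 23 or 24 for the others. Klrb1 could not be fitted in females alone, with at least 10 counts in every library, or without any one of young males 1 to 3 and young females 2 and 3. With DESeq2, 112 genes were called, 1 of them a member (Klrb1, log2 fold change −5.45), and with limma voom 138 genes, 2 of them members (Klrb1, −4.85, and Klrb1c, −1.24). Of all genes, 17 were called with at least 1 count in any library, 5 with at least 10 counts in every library, 5 with no sex term, 0 in males alone, 0 in females alone, 6 in the 9 libraries with over 10000000 counts and 1 to 4 with each library left out, against 3 as reported. The cause was not tested.

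By permutation, Klrb1 and Klrb1a kept unadjusted p values under 0.05 under all 16 alternatives each. For Klrb1 these include settings in which it did not pass the filter. As it was kept for its young counts, its p values do not independently support a difference. Klrb1b did not keep a p under 0.05 in the 9 deeper libraries (difference −3.48, exact p = 0.0556). With each library left out its difference ranged from −3.74 to −2.43 (exact p = 0.00952 to 0.0905). Clec2i passed in the 9 deeper libraries (−0.21, exact p = 0.0476), and with each library left out ranged from −0.20 to −0.056, passing only without young female 1. Klrb1f ranged from −0.85 to 0.14 with each library left out, and was positive without young male 3 (0.05), middle-aged male 2 (0.10), young female 1 (0.07) or young female 3 (0.14), with exact p from 0.937 to 0.984 in these 4.

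Libraries of a sex that share a replicate number deviated together with correlations of 0.03 to 0.43, not all over 0.1, so the numbers were not taken to pair them. The labels do not say what the number stands for, but levels of some genes went with it. The T cell gene Cd3d fell from number 1 to 3 in young males (2476, 1093 and 743 CPM) and young females (2923, 1161 and 761). It also fell in middle-aged females (1795, 913 and 712) and from number 1 to 2 in middle-aged males (1888 and 1047). Cd3g and Trac fell in each of these groups as well, whereas other T cell genes did not follow the number. In young males 1 to 3, Cd3e was at 533.3, 944.2 and 761.7 CPM and Il2rb at 552, 2625 and 2290 CPM. The main model left this structure out. With a replicate block within sex, 2 genes were called, 0 of them members, and log2 fold changes were −5.34 for Klrb1, −2.32 for Klrb1a, −3.54 for Klrb1b, −0.61 for Klrb1c, −0.16 for Klrb1f, −0.31 for Clec2d and −0.13 for Clec2i. With the number as a replicate block shared across sexes, chosen after seeing the data as were the 9 deeper libraries, 19 genes were called and 0 members. Log2 fold changes in that fit were −5.11 for Klrb1, −2.10 for Klrb1a, −3.945 for Klrb1b and −0.68 for Klrb1c. They were −0.36 for Klrb1f, −0.32 for Clec2d and −0.11 for Clec2i. Within replicate numbers 1, 2 and 3, Klrb1a differed by −3.35, −0.82 and −2.14 in log2 CPM, Klrb1b by −4.12, −2.09 and −1.75, Klrb1c by 0.15, −0.90 and −1.28, and Clec2d by −0.48, 0.62 and −1.56. On counts not divided by length, the middle-aged share of Klrb1c was 81.9% in place of 75.0%, that of Klrb1a 4.11% in place of 6.78%, that of Klrb1f 12.7% in place of 16.7%, that of Klrb1b 1.23% in place of 1.44% and that of Klrb1 0.0485% in place of 0.0915%. Klrb1 and Klrb1b had 0 counts in 5 and 2 of the 11 libraries.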
